A study of Mus musculus with 6 samples.

Results

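The transcripts of collagen and laminin chains were compared between mouse libraries that received fibrinogen, a clotting protein of blood plasma and the precursor of fibrin, and control libraries. A gene was a member when its symbol in the expression table had the form of a collagen alpha chain (Col, a type number, a and a chain number) or of a laminin chain (Lama, Lamb or Lamc and a number). This rule found 55 of the 34250 genes of the table, 44 collagen genes and 11 laminin genes, and it used no measured value. The study asked how fibrinogen acts on OPCs (oligodendrocyte progenitor cells), from which the oligodendrocytes that form myelin arise. The 3 fibrinogen and 3 control libraries were made from total RNA of wild-type C57BL/6 mice and carried the labels brain and OPC. Column names of the table give the amount of fibrinogen as 2.5 mg and number the libraries as mice, whereas the study's methods describe primary cortical OPC cultures from newborn pups, prepared after the meninges and blood vessels had been taken away and then given fibrinogen or vehicle. The duration of treatment was not given in the sources used here. The labels do not state whether the replicates of a treatment were separate cultures or animals, so each p-value reflects library-to-library spread, part of which may be technical.

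Collagens are trimers of alpha chains, wound around each other into a stiff helix. Fibril-forming collagens build the cables of connective tissue, network-forming type IV collagen builds the sheet of basement membranes, type VI collagen builds beaded filaments, and FACIT collagens (fibril-associated, with interrupted helices) coat the surface of fibrils. Laminins are cross-shaped trimers of an alpha, a beta and a gamma chain that polymerise in basement membranes and bind integrins and dystroglycan on cells. In the brain, basement membranes surround blood vessels and underlie the pia, and most fibrillar collagen is made by fibroblasts of the meninges and the perivascular space.

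The libraries held 36670999 to 44448983 reads assigned to genes, and levels are given as RPKM (reads scaled to exon length and to the library total), which allows genes of different length to be set side by side. The labelled cell type was checked against marker genes. The median level of 10 OPC markers was 5.51 to 5.79 RPKM in fibrinogen libraries and 2.75 to 3.78 RPKM in control libraries. The median of 10 neuron markers was 61.9 to 72.2 RPKM in fibrinogen libraries and 62.9 to 70.8 RPKM in control libraries, far above that of the OPC markers in every library. The libraries are therefore called by their treatment and not by a cell type, and in such bulk RNA fewer cells of a type and less RNA per cell cannot be told apart. Control replicate 3 stood apart among the collagen and laminin genes. It was the highest of the 6 libraries for 18 of 55 members (32.7%), against 23.0% of all genes with at least 10 reads in 3 libraries, and it was at least 1.5 times both other controls for 24 of 55 members, against 9% of all such genes.

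Most collagen and laminin chains did not pass the test, and those that did were mainly higher with fibrinogen and low in level. The highest transcripts were the basement membrane and filament chains Col6a1, Col4a1 and Col4a2, and none of these was called. The linear model limma was fitted to log2(RPKM + 1) of genes that reached 1 RPKM in 3 or more libraries, which 26 members did and 29 did not. Col11a2, Col27a1 and Col15a1 rose, 0 members fell, and 23 did not pass an adjusted p of 0.05. Col27a1 and Col15a1 reached 1 RPKM only in the 3 fibrinogen libraries, and Col5a3 only in the 3 controls. These genes passed the filter through the group where they were high, so their place among the 26 depends on their change. The share and the median that follow are descriptions, and no test rests on them. The 3 of 26 called (11.5%) matched the share of all tested genes, of which 11.5% were called, 5.87% higher and 5.62% lower. The median log2 change was 0.10 over the 26 members and -0.01 over the 14710 genes tested. At an adjusted p under 0.05 this count was 0 without control replicate 1 or without fibrinogen replicate 1, and 4 without control replicate 3. In the same fits the count over all genes went from 1689 to 466, 494 and 2300, in that order.

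Whole reads could be recovered from the RPKM values, and limma-voom on these reads tested all 55 members, since each had at least 10 reads in at least 3 libraries. Here 12 members rose (21.8%, against 5.78% of the 20113 genes tested), 3 fell (5.45%, against 5.64%) and 40 did not pass. The 3 calls of limma on RPKM were among the 12. The groups did not overlap in 15 members that were higher with fibrinogen and 5 that were lower, against 16.1% and 16.8% of all genes tested. The median log2 change was 0.13 over the members and -0.01 over all genes tested. Of the 15 called members, 12 were below 2 RPKM in every library. Collagen genes accounted for 11 of the rises and all 3 falls, and among the 11 laminin genes only Lama3 was called. Of the 15 calls, 6 held whichever single library was left out, namely Col11a2, Col27a1, Col15a1, Col12a1, Col6a3 and Col4a3. The count was 7 without control replicate 1 or fibrinogen replicate 3, 9 without fibrinogen replicate 1, 10 without control replicate 2 and 19 without control replicate 3. The count over all genes is not given for these fits, so these counts cannot be set apart from a change in calls over all genes.

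**Figure D1:**
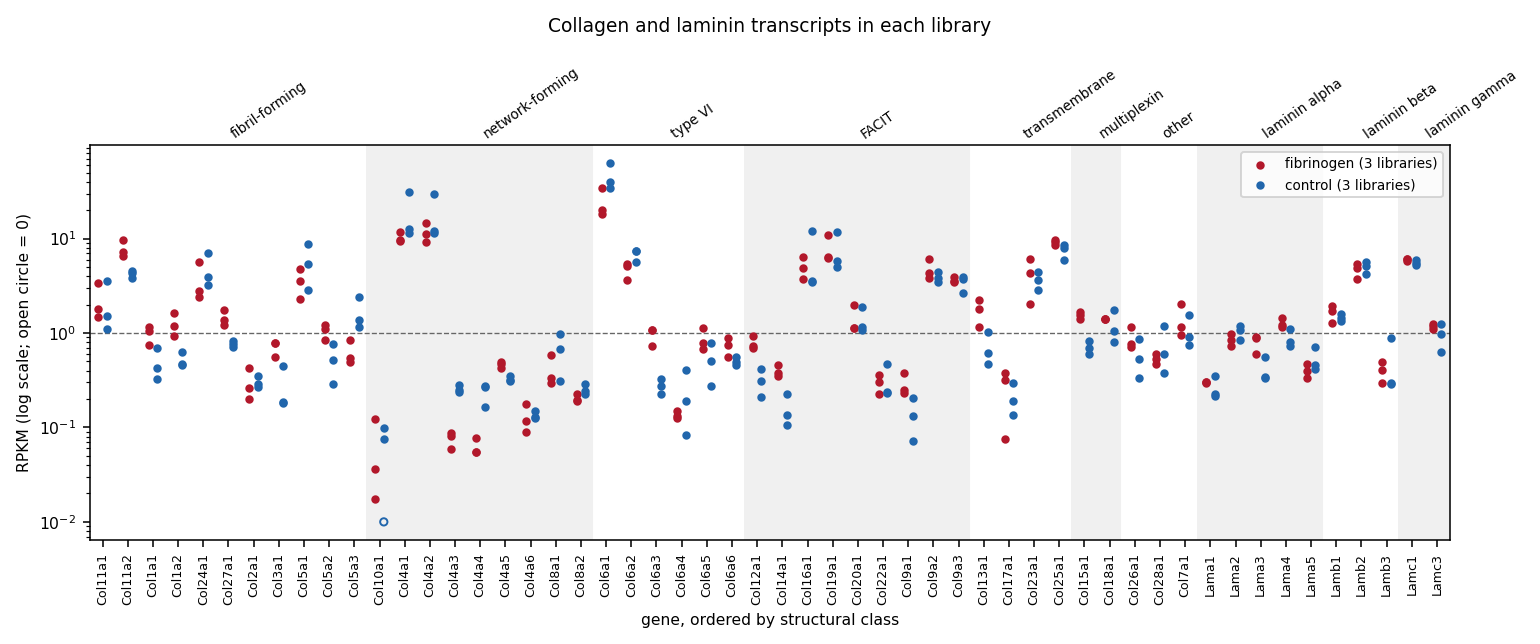
Level of the collagen and laminin genes in each library, in RPKM on a log axis, with genes ordered by structural class, fibrinogen libraries in red left of control libraries in blue, the dashed line at 1 RPKM and an open circle for a value of 0. Col6a1 is the highest at 18 to 34.7 RPKM with fibrinogen and 34.1 to 63.3 RPKM in controls, and most members that rose lie near or below 1 RPKM.

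Among the 11 fibril-forming chains, 6 rose and 1 fell on recovered reads, with a median log2 change of 0.88 (background 5.78% and 5.64%). Col11a2, a minor chain of cartilage fibrils (chr17:34039437-34066685 on GRCm38), was the most abundant of those that rose. Its levels were 7.26, 9.66 and 6.57 RPKM in fibrinogen libraries, against 4.31, 4.49 and 3.85 RPKM in control libraries. All 3 fibrinogen libraries were above all 3 controls. The mean was 1.86-fold higher, with a log2 change of 0.75 ± 0.135 (SE) in limma on log2(RPKM + 1) (adjusted p = 0.0190) and 0.88 ± 0.147 in limma-voom (adjusted p = 0.00739). The limma call was lost without control replicate 1 (adjusted p = 0.0663) or fibrinogen replicate 1 (adjusted p = 0.0589). Col27a1, a fibril-forming chain of cartilage with a long gene on chromosome 4 (chr4:63214004-63334991), had 1.23, 1.75 and 1.36 RPKM in fibrinogen libraries and 0.715, 0.767 and 0.821 RPKM in control libraries. These groups were also apart, and the log2 change was 0.46 ± 0.111 in limma (adjusted p = 0.0410) and 0.91 ± 0.155 in limma-voom (adjusted p = 0.00805). The limma value is smaller because adding 1 RPKM before the logarithm shrinks the change of a low gene. The limma call of Col27a1 was lost without each library other than control replicate 3 (adjusted p 0.0786 to 0.136).

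The chains of the common connective tissue fibrils, types I, III and V, were lower in level and were below the filter of limma on RPKM, apart from Col5a1 and Col5a3. Col1a1 and Col1a2 are the chains of type I collagen, the main protein of bone, skin and meninges. Col1a1 (chr11:94936224-94953042) had 1.05, 0.754 and 1.15 RPKM in fibrinogen libraries, against 0.430, 0.328 and 0.699 RPKM in control libraries. Col1a2 (chr6:4504814-4541544) had 1.20, 0.927 and 1.62 RPKM in fibrinogen libraries, against 0.461, 0.474 and 0.629 RPKM in control libraries. For both genes every fibrinogen library was above every control, with control replicate 3 the highest control. On recovered reads Col1a2 rose by a log2 change of 1.23 ± 0.232 (limma-voom adjusted p = 0.0121) and Col1a1 by 1.04 ± 0.281 (limma-voom adjusted p = 0.0445). The log2 ratio of Col1a1 to Col1a2 was -0.33 ± 0.154 (SD, n = 3) with fibrinogen and -0.16 ± 0.346 in controls, a difference of -0.17 that lay within the spread of the controls. Col3a1, the single chain of type III collagen, which accompanies type I in elastic tissue and vessel walls, had 0.789, 0.555 and 0.777 RPKM in fibrinogen libraries and 0.186, 0.183 and 0.453 RPKM in control libraries. Its log2 change was 1.45 ± 0.323 (limma-voom adjusted p = 0.0228), and again the groups were apart. Leaving out control replicate 1 ended the calls of Col1a1, Col1a2 and Col3a1 (limma-voom adjusted p = 0.138, 0.0536 and 0.0940), and leaving out control replicate 2, fibrinogen replicate 1 or fibrinogen replicate 3 ended those of Col1a1 and Col3a1 (adjusted p 0.0719 to 0.144).

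The type V chains, which start fibrils and set their diameter, moved in opposite directions. Col5a2, the partner chain of the common type V trimer, lies 24614 bases from Col3a1 on chromosome 1 (chr1:45374321-45503282). It had 0.847, 1.09 and 1.23 RPKM in fibrinogen libraries, against 0.289, 0.513 and 0.763 RPKM in control libraries, and rose by a log2 change of 1.09 ± 0.294 (limma-voom adjusted p = 0.0436). Col5a3 (chr9:20770050-20815067), a chain of narrower distribution, had 0.489, 0.836 and 0.542 RPKM in fibrinogen libraries, against 1.36, 1.17 and 2.40 RPKM in control libraries. The groups were apart for both genes, with all fibrinogen libraries above the controls for Col5a2 and below them for Col5a3. The log2 change of Col5a3 was -1.36 ± 0.317 in limma-voom (adjusted p = 0.0267) and -0.68 ± 0.187 in limma on log2(RPKM + 1) (adjusted p = 0.0612), which did not pass. Col5a1, which forms the trimer with Col5a2, had 2.32, 4.80 and 3.58 RPKM in fibrinogen libraries and 5.41, 2.89 and 8.80 RPKM in control libraries, and these ranges overlapped (log2 change -0.49 ± 0.344, limma adjusted p = 0.39). Without control replicate 3 the log2 change of Col5a1 was -0.17, without control replicate 2 it was -0.83 and without fibrinogen replicate 1 it was -0.28. The Col5a2 call held in 1 of the 6 fits that left out a library, without control replicate 3 (limma-voom adjusted p 0.00679 to 0.143 over the 6). The Col5a3 call was lost without control replicate 1 (adjusted p = 0.0552), fibrinogen replicate 1 (adjusted p = 0.0976) or fibrinogen replicate 3 (adjusted p = 0.111) in limma-voom. The other fibril-forming chains were not called. Col24a1, a chain of developing bone, had 2.42 to 5.61 RPKM with fibrinogen and 3.22 to 6.98 RPKM in controls. Col11a1 had 1.47 to 3.41 RPKM with fibrinogen and 1.09 to 3.58 RPKM in controls, and the cartilage gene Col2a1 had 0.200 to 0.427 RPKM with fibrinogen and 0.269 to 0.355 RPKM in controls.

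The 250 bases before the start of Col3a1, Col6a3 and Col5a3 are shown because these genes had among the largest changes in each direction and a start that matched RefSeq on GRCm38.p6. Windows were given for 40 of the 55 members. The windows were searched on both strands for the GC box written as GGGCGG, the TATA box written as TATAAA and the motif CCAAT, which stand in capitals, and a match describes letters, not a bound site.
Col3a1, chr1:45311288-45311537, plus strand: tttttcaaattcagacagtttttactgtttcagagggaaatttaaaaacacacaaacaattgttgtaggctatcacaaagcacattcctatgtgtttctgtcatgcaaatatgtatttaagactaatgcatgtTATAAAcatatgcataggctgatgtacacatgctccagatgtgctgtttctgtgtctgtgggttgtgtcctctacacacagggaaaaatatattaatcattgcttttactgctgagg
Col6a3, chr1:90843972-90844221, minus strand: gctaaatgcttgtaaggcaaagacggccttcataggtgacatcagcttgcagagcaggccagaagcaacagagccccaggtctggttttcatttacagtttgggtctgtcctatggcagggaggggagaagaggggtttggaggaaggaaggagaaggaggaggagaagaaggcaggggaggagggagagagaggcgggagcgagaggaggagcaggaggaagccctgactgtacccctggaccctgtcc
Col5a3, chr9:20815068-20815317, minus strand: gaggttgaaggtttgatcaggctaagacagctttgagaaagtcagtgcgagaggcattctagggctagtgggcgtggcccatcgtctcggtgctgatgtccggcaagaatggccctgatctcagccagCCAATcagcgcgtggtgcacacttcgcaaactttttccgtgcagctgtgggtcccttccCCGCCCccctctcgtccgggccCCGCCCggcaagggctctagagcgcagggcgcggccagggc
Col3a1 had a TATAAA that began 117 bases before the start and Col6a3 had none of the 3 motifs, while Col5a3, which fell, had a CCAAT and a pair of GGGCGG read on the opposite strand (printed as CCGCCC). Of 32851 windows of this length, 33.8% held the motif CCAAT, 32.7% held the GC box and 12.4% held the TATA box. The share of G and C was 35.2% in Col3a1, 57.2% in Col6a3 and 62.8% in Col5a3, against a median of 52.4%.

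Type VI collagen, whose main trimer joins the chains Col6a1, Col6a2 and Col6a3 into filaments around cells, held the largest rise of all members. Col6a3 (chr1:90765923-90843971) had 0.729, 1.07 and 1.08 RPKM in fibrinogen libraries, against 0.227, 0.272 and 0.327 RPKM in control libraries. All fibrinogen libraries were above all controls, with a wide gap between the groups. The mean was 3.49-fold higher and the log2 change 1.80 ± 0.229 (limma-voom adjusted p = 0.00251), and the call held in each of the 9 alternatives run for this gene (log2 change 0.62 to 1.97, adjusted p 0.00178 to 0.0388). The other chains of the trimer lay the other way without passing the test. Col6a1 (chr10:76708792-76726168) had 18, 34.7 and 20.3 RPKM in fibrinogen libraries and 34.1, 40.0 and 63.3 RPKM in control libraries, where only fibrinogen replicate 2 reached into the range of the controls. Its log2 change was -0.89 ± 0.294 in limma on log2(RPKM + 1) (adjusted p = 0.0953) and -0.92 ± 0.268 in limma-voom (adjusted p = 0.0558). Col6a2, which lies 85161 bases from Col6a1, had 3.67, 5.41 and 5.13 RPKM in fibrinogen libraries and 7.44, 5.63 and 7.43 RPKM in control libraries. These groups did not overlap, and the log2 change was -0.45 ± 0.152 (limma adjusted p = 0.0998). In limma-voom Col6a1 was called without fibrinogen replicate 2 (adjusted p = 0.0274) and Col6a2 without control replicate 2 (adjusted p = 0.0448).

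The relative levels of the type VI chains are given as log2 ratios. The log2 ratio of Col6a3 to Col6a2 was -2.33, -2.34 and -2.24 in fibrinogen libraries and -5.03, -4.37 and -4.51 in control libraries, a difference of 2.33 with no overlap. This ratio was chosen after the values were seen, and it has no test of its own. The log2 ratio of Col6a1 to Col6a2 was 2.32 ± 0.351 (SD, n = 3) with fibrinogen and 2.71 ± 0.459 in controls, whose values overlapped. The remaining chains of the class, Col6a4, Col6a5 and Col6a6, lay between 0.0841 and 1.13 RPKM and were not called. Col6a5 had 0.684 to 1.13 RPKM with fibrinogen and 0.277 to 0.780 RPKM in controls, and Col6a6 had 0.560 to 0.884 RPKM with fibrinogen and 0.462 to 0.562 RPKM in controls. Without control replicate 3 Col6a5 was called in limma-voom (log2 change 1.19, adjusted p = 0.0272). On recovered reads 1 of the 6 chains of this class rose and 0 fell (5.78% and 5.64% of all genes tested).

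**Figure D2:**
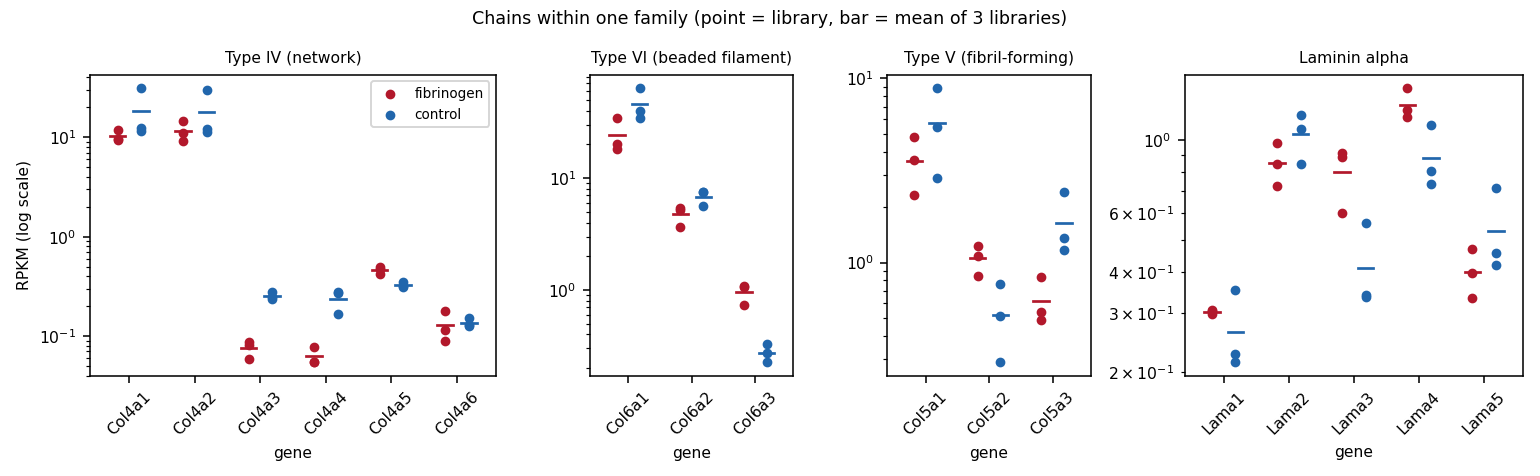
Levels of single chains within the type IV, type VI, type V and laminin alpha families, in RPKM on log axes, with a point for each library, a bar at the mean of 3 libraries, and fibrinogen in red left of control in blue. Col4a3 and Col4a4 lie lower with fibrinogen while Col4a5 lies higher, and Col6a3 lies higher while Col6a1 and Col6a2 lie lower.

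Of the 9 network-forming chains, 0 rose and 2 fell on recovered reads, with a median log2 change of -0.49 (5.78% and 5.64% of all genes tested). The pair that fell, Col4a3 and Col4a4, codes for chains of the type IV trimer of the kidney filter, the lung and the inner ear. Col4a3 had 0.0876, 0.0813 and 0.0585 RPKM in fibrinogen libraries, against 0.249, 0.236 and 0.279 RPKM in control libraries. Col4a4 had 0.0771, 0.0551 and 0.0549 RPKM in fibrinogen libraries, against 0.271, 0.166 and 0.278 RPKM in control libraries. Both were at least 2-fold lower in every fibrinogen library than in any control, on 24 to 119 reads a library for Col4a3 and 24 to 126 for Col4a4. The log2 change was -1.76 ± 0.276 for Col4a3 (limma-voom adjusted p = 0.00581) and -1.91 ± 0.347 for Col4a4 (limma-voom adjusted p = 0.0101). The Col4a4 call was lost without fibrinogen replicate 3 (limma-voom adjusted p = 0.0532). Their log2 ratio, chosen after the values were seen, was 0.28 ± 0.249 (SD, n = 3) with fibrinogen and 0.13 ± 0.331 in controls. Of the exon bases of Col4a3, 5.65% overlap a gene on the opposite strand, C430014B12Rik, and reads there could not be told apart if strand was not used in counting. Smaller overlaps of this kind touch other called members, with 1.83% of the exon bases of Lama3, 1.44% of Col3a1 (same strand) and 0.221% of Col15a1.

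Col4a3 (chr1:82586921-82722059, plus strand) and Col4a4 (chr1:82448423-82586849, minus strand) are transcribed away from each other. The 71 bases between their starts are shown because they are the whole interval that the pair of genes shares upstream. The interval is printed in the direction of Col4a4.
Col4a4 to Col4a3 interval, chr1:82586850-82586920, minus strand: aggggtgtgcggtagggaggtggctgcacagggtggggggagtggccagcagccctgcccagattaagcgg
It held none of the 3 motifs on either strand. Of all windows of 71 bases before a start, 13.3% held the motif CCAAT, 20.7% held the GC box and 4.41% held the TATA box. G and C made up 69.0% of it, against a median of 54.9%.

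The other head-to-head pairs of type IV chains were not called. Col4a1 and Col4a2, the chains of the type IV trimer found in all basement membranes, lie on chromosome 8 with 22 bases in common and were among the most abundant members. Col4a1 had 9.32, 11.8 and 9.64 RPKM in fibrinogen libraries and 11.5, 12.5 and 31.0 RPKM in control libraries. Col4a2 had 9.13, 14.6 and 11.1 RPKM in fibrinogen libraries and 12.1, 11.4 and 29.9 RPKM in control libraries. In both, control replicate 3 stood far above the other 5 libraries, which overlapped. The log2 change was -0.65 ± 0.339 for Col4a1 (limma adjusted p = 0.253) and -0.46 ± 0.353 for Col4a2 (limma adjusted p = 0.428), and neither was called in any of its 17 alternatives. Without control replicate 3 the log2 change was -0.21 for Col4a1 (limma adjusted p = 0.23) and -0.04 for Col4a2 (limma adjusted p = 0.903), and without control replicate 2 it was -0.70 for Col4a2. Their log2 ratio was -0.16 ± 0.175 (SD, n = 3) with fibrinogen and 0.04 ± 0.103 in controls, so that the chains kept close levels to each other in every library, control replicate 3 included. Col4a5 and Col4a6 on the X chromosome have starts 1308 bases apart. Col4a5, a further chain of the kidney trimer, had 0.495, 0.425 and 0.473 RPKM in fibrinogen libraries and 0.350, 0.309 and 0.320 RPKM in control libraries. These groups did not overlap, but the log2 change of 0.50 ± 0.195 did not pass (limma-voom adjusted p = 0.128). Col4a6 had 0.0903 to 0.178 RPKM with fibrinogen and 0.125 to 0.151 RPKM in controls. The log2 ratio of Col4a5 to Col4a6 was 1.92 ± 0.393 with fibrinogen and 1.28 ± 0.231 in controls (SD, n = 3), and the groups overlapped. The short-chain network collagens Col8a1, Col8a2 and Col10a1, known from the cornea, vessels and growth cartilage, lay below 1 RPKM in every library and were not called, and Col10a1 had 0 to 16 reads.

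**Figure D3:**
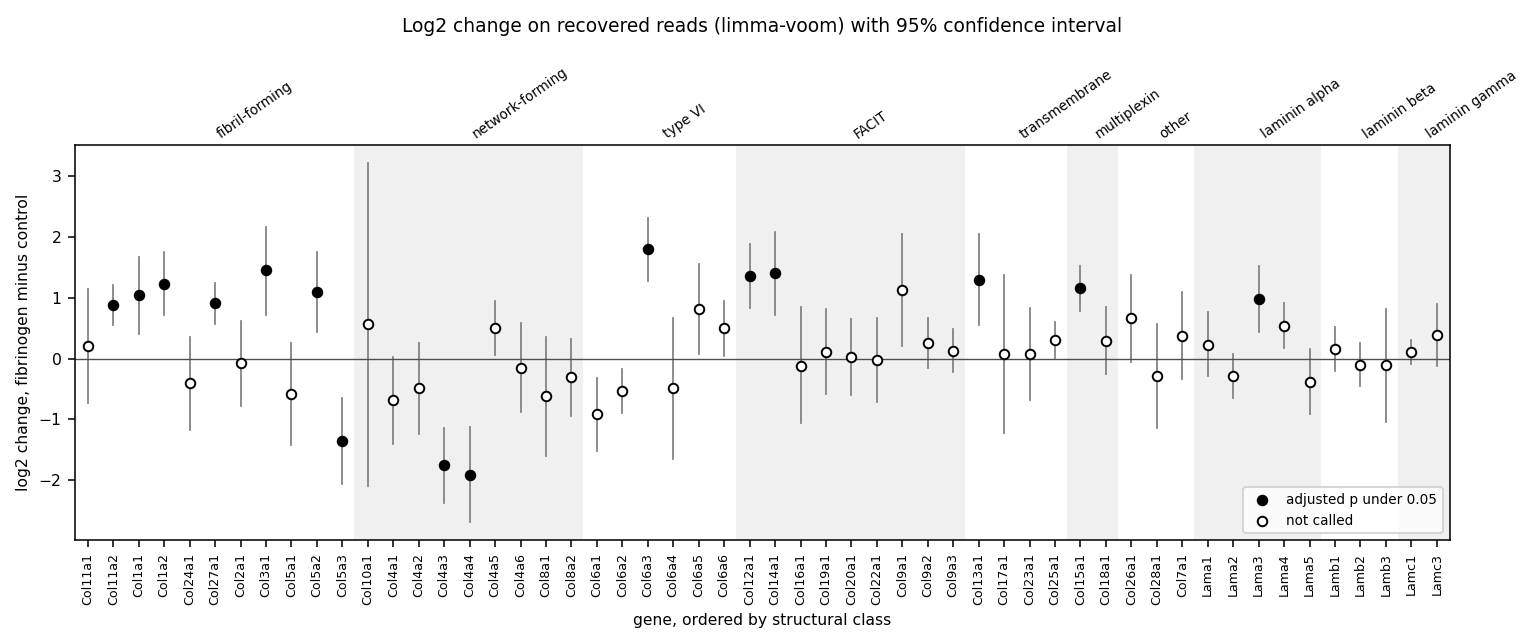
Log2 change (fibrinogen minus control) of the members in limma-voom on recovered reads, with 95% confidence intervals that are not adjusted for the number of genes, ordered by class. Filled points passed an adjusted p of 0.05. The filled points lie at 0.88 to 1.80 for the 12 genes that rose and at -1.91 to -1.36 for the 3 that fell.

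Among the 9 FACIT chains, 2 rose and 0 fell on recovered reads (5.78% and 5.64% of all genes tested). Col12a1 and Col14a1 coat type I fibrils in tendon, skin and other dense tissue. Col12a1 (chr9:79598991-79718831) had 0.734, 0.928 and 0.689 RPKM in fibrinogen libraries, against 0.209, 0.311 and 0.421 RPKM in control libraries. Col14a1 (chr15:55307750-55520803) had 0.381, 0.456 and 0.350 RPKM in fibrinogen libraries, against 0.134, 0.106 and 0.224 RPKM in control libraries. All fibrinogen libraries were above all controls in both genes. The log2 change was 1.36 ± 0.235 for Col12a1 (limma-voom adjusted p = 0.00860) and 1.4 ± 0.303 for Col14a1 (limma-voom adjusted p = 0.0207). The Col14a1 call was lost in 5 of the 6 fits without a library, all but that without control replicate 3 (limma-voom adjusted p 0.0514 to 0.0831). The cartilage chain Col9a1 had 0.248, 0.373 and 0.230 RPKM in fibrinogen libraries and 0.0722, 0.131 and 0.203 RPKM in control libraries, also without overlap, but it did not pass (log2 change 1.13 ± 0.409, limma-voom adjusted p = 0.107).

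The abundant FACIT chains showed no call. Col19a1, which some interneurons of the mouse brain make, had 6.25, 11 and 6.38 RPKM in fibrinogen libraries and 5.85, 5 and 11.8 RPKM in control libraries, with 1 high library in each group (log2 change 0.10 ± 0.316, limma adjusted p = 0.870). Col16a1, a chain found in cartilage and smooth muscle, had 3.76, 6.41 and 4.94 RPKM in fibrinogen libraries and 3.48, 3.57 and 12.1 RPKM in control libraries. The log2 change of -0.12 ± 0.412 did not pass (limma adjusted p = 0.878) and became 0.39 without control replicate 3 (limma adjusted p = 0.185). Col9a2 and Col9a3 are partner chains in type IX collagen. Col9a2 had 4.33, 3.85 and 6.03 RPKM in fibrinogen libraries and 3.80, 3.43 and 4.47 RPKM in control libraries, and Col9a3 had 3.52, 3.96 and 3.51 RPKM in fibrinogen libraries and 3.90, 3.73 and 2.67 RPKM in control libraries. The groups overlapped in both and neither passed (log2 change 0.22 ± 0.154, limma adjusted p = 0.398, for Col9a2 and 0.08 ± 0.125, limma adjusted p = 0.693, for Col9a3). Their log2 ratio was 0.35 ± 0.413 with fibrinogen and 0.20 ± 0.477 in controls (SD, n = 3). Col20a1 had 1.12 to 1.96 RPKM with fibrinogen and 1.07 to 1.89 RPKM in controls, and Col22a1, a chain of muscle and tendon junctions, had 0.228 to 0.356 RPKM with fibrinogen and 0.231 to 0.468 RPKM in controls.

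Of the multiplexins, collagens of the basement membrane zone that release endostatin-like fragments, Col15a1 rose and Col18a1 was not called. Col15a1 (chr4:47208161-47313167) had 1.55, 1.69 and 1.41 RPKM in fibrinogen libraries, against 0.692, 0.823 and 0.593 RPKM in control libraries. The groups were well apart, and here control replicate 3 was the lowest library. The log2 change was 0.58 ± 0.103 in limma on log2(RPKM + 1) (adjusted p = 0.0172) and 1.16 ± 0.167 in limma-voom (adjusted p = 0.00427), a 2.21-fold higher mean. The limma call was lost without control replicate 1, fibrinogen replicate 1 or fibrinogen replicate 2 (adjusted p = 0.0683, 0.0669 and 0.0534). Col18a1, the source of endostatin, had 1.41, 1.41 and 1.42 RPKM in fibrinogen libraries and 0.801, 1.05 and 1.77 RPKM in control libraries. The fibrinogen values lay inside the range of the controls (log2 change 0.15 ± 0.162, limma adjusted p = 0.574). Without control replicate 3 Col18a1 was called in limma-voom (log2 change 0.62, adjusted p = 0.0258).

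Transmembrane collagens sit in the plasma membrane and can be shed from it. Col13a1 (chr10:61838236-61979108), which takes part in the neuromuscular junction, had 1.78, 1.16 and 2.26 RPKM in fibrinogen libraries, against 0.466, 0.617 and 1.02 RPKM in control libraries. All fibrinogen libraries were higher, and the log2 change was 1.30 ± 0.332 in limma-voom (adjusted p = 0.0365) and 0.68 ± 0.186 in limma (adjusted p = 0.0611), which did not pass. Without fibrinogen replicate 1 or 3 or control replicate 1 or 2 the limma-voom call was lost (adjusted p 0.0949 to 0.129). Col25a1, a neuronal collagen also found in amyloid plaques, was the most abundant of the class, at 8.58, 9.15 and 9.72 RPKM in fibrinogen libraries and 5.95, 8.61 and 7.91 RPKM in control libraries. The lowest fibrinogen library was just under the highest control, and the gene did not pass (log2 change 0.27 ± 0.129, limma adjusted p = 0.214). Col23a1 had 2.04, 4.27 and 6.13 RPKM in fibrinogen libraries and 3.63, 2.89 and 4.45 RPKM in control libraries, and the fibrinogen libraries spread across the whole range of the controls (log2 change 0.07 ± 0.297, limma adjusted p = 0.898). Col17a1, a chain of the anchoring complexes of epithelia, was at 0.0758 to 0.378 RPKM with fibrinogen and 0.136 to 0.293 RPKM in controls. Of the remaining collagens, Col7a1, the chain of anchoring fibrils, had 0.957, 2.04 and 1.16 RPKM in fibrinogen libraries and 0.905, 0.752 and 1.56 RPKM in control libraries (log2 change 0.20 ± 0.208, limma adjusted p = 0.576). Col26a1 had 0.704, 1.16 and 0.766 RPKM in fibrinogen libraries and 0.537, 0.338 and 0.867 RPKM in control libraries (log2 change 0.66 ± 0.320, limma-voom adjusted p = 0.212), and it was called without control replicate 3 (log2 change 1.02, limma-voom adjusted p = 0.0394). Both overlapped between the groups, as did Col28a1, with 0.467 to 0.606 RPKM with fibrinogen and 0.376 to 1.19 RPKM in controls, and none of these 3 was called with all 6 libraries.

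Among the 11 laminin genes, 1 alpha chain rose and 0 genes fell on recovered reads, against 5.78% and 5.64% of all genes tested. The call count was 0 for the 6 beta and gamma chains, and counts this small do not set the chain classes apart. Lama3, the alpha chain of epithelial laminin, had 0.604, 0.913 and 0.886 RPKM in fibrinogen libraries, against 0.341, 0.336 and 0.560 RPKM in control libraries. The groups were apart by a small margin, and the log2 change was 0.98 ± 0.243 (limma-voom adjusted p = 0.0338). The call was lost without control replicate 1 (adjusted p = 0.124), control replicate 2 (adjusted p = 0.0999), fibrinogen replicate 2 (adjusted p = 0.0928) or fibrinogen replicate 3 (adjusted p = 0.116) in limma-voom. Lamb3, a beta chain that joins Lama3 in the laminin of the skin, had 0.495, 0.402 and 0.297 RPKM in fibrinogen libraries and 0.293, 0.883 and 0.290 RPKM in control libraries (log2 change -0.11 ± 0.416, limma-voom adjusted p = 0.890). The groups overlapped, control replicate 2 being the highest of the 6 libraries.

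Lama4 is the alpha chain of endothelial basement membranes, and Lama2 is that of muscle, Schwann cells and the brain's perivascular glial sheath. Lama4 (chr10:38965515-39110188) had 1.23, 1.17 and 1.43 RPKM in fibrinogen libraries and 0.806, 0.736 and 1.11 RPKM in control libraries. Lama2 (chr10:26980036-27619758) had 0.843, 0.979 and 0.725 RPKM in fibrinogen libraries and 1.08, 0.845 and 1.19 RPKM in control libraries. The groups did not overlap for Lama4 and did for Lama2, and neither passed, with a log2 change of 0.54 ± 0.165 for Lama4 (limma-voom adjusted p = 0.0641) and -0.29 ± 0.163 for Lama2 (limma-voom adjusted p = 0.282). Lama4 was called in limma-voom without control replicate 3 (adjusted p = 0.00863). The log2 ratio of Lama2 to Lama4 was -0.55, -0.26 and -0.98 in fibrinogen libraries and 0.43, 0.20 and 0.11 in control libraries. Lama4 was thus the higher chain in each fibrinogen library and Lama2 the higher in each control, a difference of -0.84 with no overlap. The embryonic and pial chain Lama1 had 0.298 to 0.306 RPKM with fibrinogen and 0.214 to 0.352 RPKM in controls, and Lama5, a chain of mature vessels and epithelia, had 0.333 to 0.468 RPKM with fibrinogen and 0.420 to 0.717 RPKM in controls.

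The abundant laminin chains were those shared by most trimers, and they differed little between the groups. Lamc1, the common gamma chain, had 5.86, 6.03 and 6.07 RPKM in fibrinogen libraries and 5.28, 5.45 and 5.98 RPKM in control libraries. The log2 change was 0.09 ± 0.0751 (limma adjusted p = 0.473), with the highest control inside the fibrinogen range. Lamb2, the beta chain of synaptic and vascular basement membranes, had 5.38, 3.71 and 4.92 RPKM in fibrinogen libraries and 5.59, 5.12 and 4.17 RPKM in control libraries. Lamb1, the other widespread beta chain, had 1.27, 1.70 and 1.94 RPKM in fibrinogen libraries and 1.34, 1.44 and 1.58 RPKM in control libraries. Neither was called (log2 change -0.08 ± 0.142, limma adjusted p = 0.758, for Lamb2 and 0.10 ± 0.120, limma adjusted p = 0.630, for Lamb1). The log2 ratio of Lamb2 to Lamc1 was -0.38 ± 0.295 with fibrinogen and -0.18 ± 0.311 in controls, and that of Lamb1 to Lamc1 was -1.89 ± 0.288 with fibrinogen and -1.94 ± 0.0351 in controls (SD, n = 3). Lamc3, a gamma chain of the retina and cortex surface, had 1.11 to 1.25 RPKM with fibrinogen and 0.630 to 1.25 RPKM in controls and was not called (log2 change 0.18 ± 0.135, limma adjusted p = 0.427).

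The genes that make, bind and cut these chains were followed in 4 lists. Among 29 enzymes and chaperones of collagen synthesis, 18 were tested by limma on log2(RPKM + 1), of which 1 rose and 0 fell. Over all genes tested by limma 5.87% rose and 5.62% fell, and the counts of 0 or 1 called gene in each direction in these 4 lists are too few to set the lists apart from that. The gene that rose was P4ha1, a catalytic subunit of the prolyl hydroxylase that stabilises the helix, with 9.96, 10.7 and 9.31 RPKM in fibrinogen libraries and 7.21, 8.07 and 7.07 RPKM in control libraries (log2 change 0.38 ± 0.0846, limma adjusted p = 0.0342). On recovered reads 2 of 29 rose and 2 fell, against 5.78% and 5.64% of all genes tested. Serpinh1, the collagen chaperone, had 5.28, 4.01 and 4.64 RPKM in fibrinogen libraries and 1.76, 1.81 and 3.83 RPKM in control libraries (log2 change 0.98 ± 0.265, limma-voom adjusted p = 0.0451). Serpinh1 did not pass in limma on log2(RPKM + 1) (adjusted p = 0.0741). All fibrinogen libraries were above the controls for P4ha1 and Serpinh1. Adamts14, a protease that removes the amino end of procollagen, had 0.0892, 0.0476 and 0.0467 RPKM in fibrinogen libraries and 0.463, 0.360 and 0.563 RPKM in control libraries. It fell by a log2 change of -2.94 ± 0.411 on 10 to 125 reads a library (limma-voom adjusted p = 0.00363), the groups being far apart. P4ha2, another prolyl hydroxylase subunit, had 1.25, 2.19 and 1.61 RPKM in fibrinogen libraries and 2.77, 2.77 and 2.85 RPKM in control libraries (log2 change -0.75 ± 0.177, limma-voom adjusted p = 0.0275). P4ha2 did not pass in limma on log2(RPKM + 1) (adjusted p = 0.0517). The median log2 change of the list was -0.11 on recovered reads, against -0.01 over all genes.

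Of 15 further basement membrane proteins, 10 were tested by limma, of which 1 rose and 1 fell (5.87% and 5.62% of all genes tested). Pxdn, the peroxidase that cross-links type IV collagen, had 2.52, 3.78 and 2.97 RPKM in fibrinogen libraries, against 5.68, 5.40 and 5.13 RPKM in control libraries (log2 change -0.66 ± 0.121, limma adjusted p = 0.0195). Ntn4, a laminin-related protein that hinders laminin assembly, had 5.31, 4.17 and 4.44 RPKM in fibrinogen libraries, against 3.14, 3.28 and 3.51 RPKM in control libraries (log2 change 0.38 ± 0.0983, limma adjusted p = 0.0493). Every fibrinogen library was below the controls for Pxdn and above them for Ntn4. On recovered reads Sparc, a collagen-binding glycoprotein, fell as well, with 30.8, 31.4 and 32.2 RPKM in fibrinogen libraries and 49.9, 50.3 and 34.8 RPKM in control libraries (log2 change -0.49 ± 0.137, limma-voom adjusted p = 0.0481). Sparc did not pass in limma on log2(RPKM + 1) (adjusted p = 0.0736). The core linkers Nid1, Nid2 and Hspg2 (perlecan) were not called, and in each of them the groups overlapped. The median log2 change of the list was 0.03 on recovered reads and -0.03 in limma on log2(RPKM + 1).

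Among 19 receptors of collagen and laminin, 10 were tested by limma, of which 1 rose and 1 fell (5.87% and 5.62% of all genes tested). Ddr1, a receptor tyrosine kinase that collagen activates, had 6.45, 6.28 and 6.31 RPKM in fibrinogen libraries, against 3.62, 3.18 and 3.88 RPKM in control libraries (log2 change 0.69 ± 0.0838, limma adjusted p = 0.00588). Sdc4, a heparan sulfate receptor of matrix proteins, had 20.1, 21.2 and 23.6 RPKM in fibrinogen libraries, against 40.4, 38.6 and 45.3 RPKM in control libraries (log2 change -0.91 ± 0.0930, limma adjusted p = 0.00337). Both groups were tight and apart for each gene, and both calls held in all 17 alternatives. On recovered reads Mrc2, a receptor that takes up cleaved collagen, also rose, with 1.02, 0.836 and 1.39 RPKM in fibrinogen libraries and 0.435, 0.491 and 0.561 RPKM in control libraries (log2 change 1.09 ± 0.232, limma-voom adjusted p = 0.0193). The common beta integrin Itgb1 had 8.23 to 9.50 RPKM with fibrinogen and 8.80 to 9.41 RPKM in controls, and dystroglycan (Dag1) had 6.47 to 6.89 RPKM with fibrinogen and 6.23 to 6.91 RPKM in controls. The median log2 change was 0.20 over the receptors on recovered reads and -0.01 over the proteases and inhibitors that follow. Among 19 proteases and inhibitors, 13 were tested by limma, of which 1 rose and 0 fell (5.87% and 5.62% of all genes tested). This was the membrane-bound metalloproteinase Mmp15, with 4, 3.91 and 3.81 RPKM in fibrinogen libraries and 1.92, 2.24 and 2.02 RPKM in control libraries (log2 change 0.68 ± 0.0805, limma adjusted p = 0.00542), whose call held in all 17 alternatives. The calls of P4ha1, Ntn4 and Pxdn were lost without each library other than control replicate 3, except that Pxdn was also called without fibrinogen replicate 2 (limma adjusted p 0.0575 to 0.162 where lost). Over the 4 lists limma-voom called 11 genes, and without a library it called 6 without control replicate 1, 7 without control replicate 2, 19 without control replicate 3, 8 without fibrinogen replicate 2 and 5 without fibrinogen replicate 1 or 3. Here too no count over all genes is given beside these fits, and the counts describe no trait of the lists.

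Markers of cells that make fibrillar collagen were read beside these results. The summed level of the 12 members that rose was 18.2, 21.0 and 19.4 RPKM in fibrinogen libraries and 8.46, 9.22 and 10.4 RPKM in control libraries. These 12 were chosen by their change, so the separation of their sums is no finding. Col11a2 alone held 6.57 to 9.66 RPKM of the fibrinogen sums and 3.85 to 4.49 RPKM of the control sums. The summed level of 12 fibroblast and leptomeninges markers, which hold no collagen or laminin gene, was 33.4, 22.6 and 43.4 RPKM in fibrinogen libraries and 19.6, 21.6 and 26.2 RPKM in control libraries, and fibrinogen replicate 2 fell inside the range of the controls. On recovered reads 2 of these 12 markers rose and 1 fell, against 5.78% and 5.64% of all genes tested, with a median log2 change of 0.90. Ogn, a small proteoglycan of the meninges, had 1.4, 0.833 and 1.75 RPKM in fibrinogen libraries and 0.268, 0.242 and 0.184 RPKM in control libraries (log2 change 2.44 ± 0.428, limma-voom adjusted p = 0.00904). Slc22a6, an organic anion carrier of the meninges, also rose (log2 change 1.71 ± 0.437, limma-voom adjusted p = 0.0369), while ceruloplasmin (Cp) fell (log2 change -1.31 ± 0.213, limma-voom adjusted p = 0.00675). None of the 12 was at 0 in any library.

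The summed level of 10 pericyte and smooth muscle markers was 87.6, 63.2 and 77.2 RPKM in fibrinogen libraries and 42.9, 52.6 and 36.4 RPKM in control libraries, with no overlap. On recovered reads 4 of the 10 rose, against 5.78% of all genes tested, with a median log2 change of 0.85. Vtn, made by pericytes, had 16.3, 12.5 and 15.6 RPKM in fibrinogen libraries and 7.93, 8.40 and 8.23 RPKM in control libraries (log2 change 0.77 ± 0.105, limma adjusted p = 0.00821). The others were the pericyte gene Rgs5, smooth muscle actin (Acta2) and Anpep, whereas the defining receptor Pdgfrb had 2.37 to 2.54 RPKM with fibrinogen and 2.24 to 2.52 RPKM in controls. The summed level of 10 endothelial markers was 46.5, 38.8 and 40.9 RPKM in fibrinogen libraries and 40.5, 40.8 and 47.2 RPKM in control libraries, and that of 10 choroid plexus markers was 61.4, 45.4 and 58.9 RPKM in fibrinogen libraries and 53.3, 36.7 and 40.5 RPKM in control libraries. Both sums overlapped between the groups. Most of the choroid plexus sum came from Enpp2 and Ttr. Enpp2 had 23.0 to 31.9 RPKM with fibrinogen and 24.1 to 37.7 RPKM in controls. Ttr had 15.9 to 33.1 RPKM with fibrinogen and 1.5 to 24.9 RPKM in controls, lowest in control replicate 3. On recovered reads 2 of the 10 endothelial markers rose and 1 fell, against 5.78% and 5.64% of all genes tested. Tek and Slco1c1 rose (log2 change 0.95 for each, limma-voom adjusted p = 0.0144 and 0.0137). Pecam1 fell (log2 change -0.53, limma-voom adjusted p = 0.0383) but did not pass in limma on log2(RPKM + 1) (adjusted p = 0.0653). Of the 8 choroid plexus markers tested on these reads, 0 rose and 0 fell. The summed level of 10 OPC markers was 69.1 to 70.1 RPKM with fibrinogen and 56.5 to 65.1 RPKM in controls, and 6 of these 10 rose on recovered reads, against 5.78% of all genes tested.

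Markers of glia and neurons were read in the same way. The summed level of 10 astrocyte markers was 437.0, 408.4 and 410.5 RPKM in fibrinogen libraries and 488.2, 497.3 and 594.4 RPKM in control libraries, with no overlap and control replicate 3 the highest. On recovered reads 5 of the 10 fell and 1 rose, against 5.64% and 5.78% of all genes tested. Gfap, the intermediate filament of reactive astrocytes, had 42.6, 32.3 and 42.4 RPKM in fibrinogen libraries and 75.7, 82.5 and 221.9 RPKM in control libraries (log2 change -1.53 ± 0.349, limma-voom adjusted p = 0.0252). It was again highest in control replicate 3, and it did not pass in limma on log2(RPKM + 1) (adjusted p = 0.0503). The separation of the astrocyte sums rested on this gene. Without Gfap the sums overlapped between the groups, and control replicate 3 was the lowest control. The water channel Aqp4 was the astrocyte marker that rose (log2 change 0.69, limma-voom adjusted p = 0.00491). Of 10 oligodendrocyte markers 3 rose and 0 fell on recovered reads, with a summed level of 269.7 to 437.8 RPKM with fibrinogen and 235.2 to 384.5 RPKM in controls. Of 10 microglia markers 3 rose and 1 fell on these reads, with a summed level of 72.5 to 80.4 RPKM with fibrinogen and 69.0 to 79.4 RPKM in controls. Of 10 neuron markers 1 rose and 0 fell on these reads, and in these last 3 lists the summed levels overlapped between the groups. The part of any of these cell types in the collagen and laminin results was not tested.

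**Figure D4:**
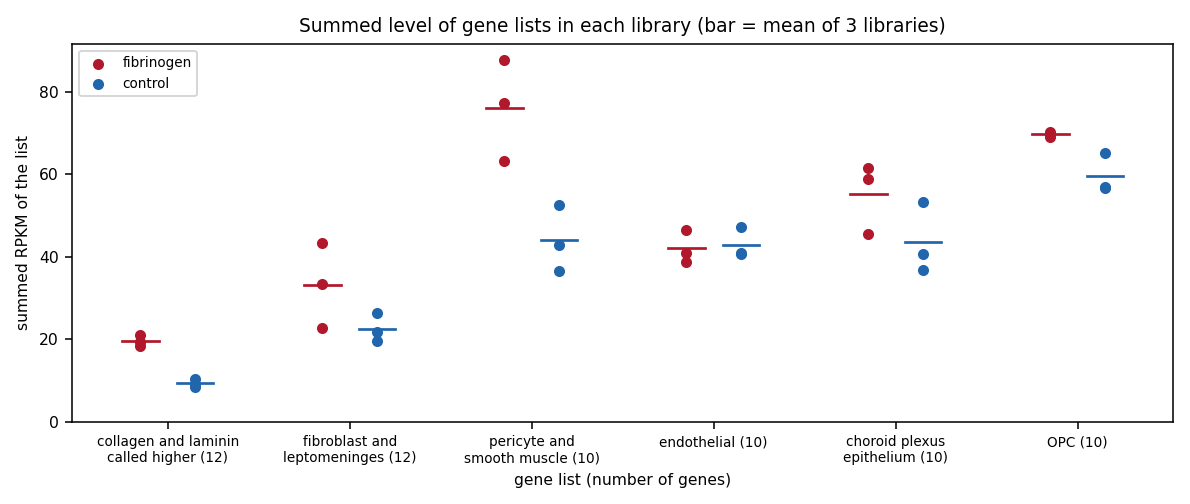
Summed RPKM in each library (points) and its mean over 3 libraries (bars) for the 12 collagen and laminin genes called higher and for marker lists of 5 of the cell types, fibrinogen in red left of control in blue. The 12 genes were chosen by their change, so their separation is no finding. The pericyte and smooth muscle list lies at 63.2 to 87.6 with fibrinogen and 36.4 to 52.6 in controls. The sums of the endothelial list overlap, although 2 of its 10 markers were called higher and 1 lower on recovered reads.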

How the data were processed

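RNA of 6 mouse libraries, 3 fibrinogen and 3 control by their titles, was compared. The authors deposited RPKM values with an exon length for each gene, and per the labels' processing notes these rested on Trimmomatic 0.39, STAR 2.7.6a, featureCounts 1.5.1, edgeR 3.12.1 and GRCm38 (mm10). The methods of the study give a different STAR version and build, but gene starts matched RefSeq on GRCm38.p6, so coordinates are on GRCm38. The kit was stranded, but whether counting used strand or reads with several alignments is not stated, so overlapping and near-identical genes are uncertain. Multiplying the deposited RPKM by exon length and library total gave whole reads within 0.001 for 100% of values above 0, with the totals recovered from the smallest values.

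Log2(RPKM + 1) of the 14710 genes with 1 RPKM or more in 3 or more of 6 libraries was fitted in limma 3.58.1 under R 4.3.3 (prior variance trended on level), two-sided, Benjamini-Hochberg adjusted over all genes, called at an adjusted p under 0.05. Limma-voom was also run on recovered reads, with the assigned reads as library size, for 20113 genes with 10 or more reads in 3 or more libraries. Log2 changes are fibrinogen minus control. An exact permutation test of 3 against 3 cannot give a p below 0.1 and was not used. Fits were tested on simulated reads with known changes. These were drawn with the same spread for every gene and with no library that stood apart, so they do not measure error rates in these data. Any pair of libraries differed beyond counting noise (chi-square per degree of freedom of at least 12.64), and all 6 were kept. Genes given in full were all called members, tested members without overlap, the 2 most abundant of each class and the paired chains, and in the partner lists all called genes. The members, lists and rules were chosen with earlier results of these data known, and the log2 ratios of Col4a3 to Col4a4 and Col6a3 to Col6a2 were added after seeing the values. Settings also varied were the pseudocount, the filter, the scaling, the prior variance and the library weights, the replicate number as a block, and each library left out, of which the block and the left-out libraries on recovered reads were added after seeing the data. The single values of 1 member are not reported here, in the text or the plots, and the member stays in the counts.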

Additional observations from a re-analysis of the deposited data

How the results depend on the processing

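The count of collagen and laminin genes called, 3 in limma on log2(RPKM + 1), was 5 with a filter of 0.1 RPKM, 7 with array weights, 5 with limma-voom on the same genes and 15 with limma-voom on all genes with 10 reads, and 0 to 4 when a library was left out. Over all genes the count of 1689 became 935 with no filter and 4041 with array weights, and 466 to 2300 without a library. The matrix partner count of 6 became 16 with array weights, 10 with limma-voom on the same genes and 11 with limma-voom on all genes with 10 reads, and 3 to 11 without a library. No pairing by replicate number was seen. The deviations of same-numbered libraries correlated at 0.0583, -0.2441 and -0.0747, and those of other pairs at -0.2158 to 0.269. With 3 libraries a group these values cannot exclude a pairing. With the replicate number as a block, limma called 1 member, 600 genes in all and 3 partners, while limma-voom called 14 members and 8 partners.

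Set against 15 members and 11 partners on recovered reads, limma on log2(RPKM + 1) gave 3 and 4 with no filter and 5 and 6 with a filter of 0.1 RPKM. Leaving out a library on recovered reads gave 7 to 19 members (9 without fibrinogen replicate 1) and 5 to 19 partners. Counts over all genes are not given for the limma-voom fits with a block or without a library. Directions turned only for uncalled genes. With array weights the log2 change became 0.28 for Col16a1 and -0.04 for Col9a3. Without a library it ranged from -0.38 to 0.39 for Col16a1, -0.14 to 0.43 for Col19a1, -0.05 to 0.16 for Col9a3, -0.21 to 0.41 for Col23a1, -0.18 to 0.05 for Lamb2 and, on recovered reads, -0.40 to 0.08 for Col4a6. Each alternative moved the difference in a log2 ratio of chains by less than the larger SD of its groups. With 3 libraries a group, leaving a library out cannot move it further, so this is no sign that the ratios are stable. The causes were not tested. Counting error is widest for Col10a1, with at most 16 reads a library, and among called members Col4a3 and Col4a4 had the fewest, at most 126.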
